A study of Mus musculus with 36 samples.

Results

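*Neurog2*, *Synpr* and *Ptpn5* are protein-coding genes best known from neurons, and their RNA was measured in the kidney of adolescent and young adult mice. They are 3 of the 78239 genes counted, and they were picked from kidney values at 12 against 8 weeks of age, so their kidney levels are given below as a description and without a test. The series holds RNA-seq of heart, kidney and liver tissue from male wild-type C57BL/6NCrl mice, an inbred substrain, bought young, kept on chow and sampled at 8, 10 or 12 weeks. Each of the 9 combinations of tissue and age holds 4 libraries, which the submitters call biological replicates, and 36 libraries were sequenced in all. No mouse was treated or carried a targeted allele, and mice of different ages are different animals. The questions are how each gene varied between libraries and ages in kidney, whether heart and liver held it too, and whether other genes of neurons and nerves moved beside it.

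*Neurog2* (neurogenin 2) encodes a basic helix-loop-helix (bHLH) transcription factor that pushes progenitors of the embryonic nervous system towards a neuronal fate. It binds short DNA motifs called E-boxes together with partners such as *Tcf3*, and Notch signaling through *Hes1* holds it in check. *Synpr* (synaptoporin) encodes a membrane protein of synaptic vesicles in the synaptophysin family. *Ptpn5* encodes STEP, a tyrosine phosphatase of the striatum and other forebrain regions that removes phosphate from p38 kinase, from Fyn and from glutamate receptors. Adult kidney has sympathetic and sensory nerve fibers, but the cell bodies of these neurons lie outside the organ, so that little of their RNA is within it.

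On the mouse build GRCm39, *Neurog2* (ENSMUSG00000027967) lies on the plus strand at chr3:127426448-127429280. *Ptpn5* (ENSMUSG00000030854) lies on the minus strand at chr7:46727541-46783690, and *Synpr* (ENSMUSG00000056296) on the minus strand at chr14:8853423-9184986. The counted exons cover 2563, 6882 and 9442 bases. The 250 bases before the annotated start of the canonical transcript are printed 5′ to 3′ for *Neurog2* and *Synpr*, to show whether these genes, which both had their highest kidney mean at 12 weeks, share promoter letters. Capitals mark each E-box, CANNTG, which was searched on both strands. The windows are chr3:127426198-127426447 (plus strand) and chr14:9184984-9185233 (minus strand).
Neurog2: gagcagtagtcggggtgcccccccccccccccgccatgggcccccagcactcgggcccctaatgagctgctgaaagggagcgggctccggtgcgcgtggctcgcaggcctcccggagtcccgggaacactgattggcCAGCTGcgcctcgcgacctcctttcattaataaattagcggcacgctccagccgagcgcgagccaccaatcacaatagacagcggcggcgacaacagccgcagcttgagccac
Synpr: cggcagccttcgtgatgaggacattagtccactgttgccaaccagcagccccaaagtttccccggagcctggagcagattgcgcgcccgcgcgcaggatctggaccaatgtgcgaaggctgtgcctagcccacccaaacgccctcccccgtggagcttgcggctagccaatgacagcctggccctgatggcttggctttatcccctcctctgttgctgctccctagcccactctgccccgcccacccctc
The *Neurog2* window held 1 E-box, which starts 113 bases before the transcript. The *Synpr* window held 0. Of 21723 promoter windows of the same length, 64.8% held an E-box, so its presence or absence sets neither gene apart. The GC box GGGCGG matched once, 13 bases before the *Synpr* start, and was found in 36.3% of all windows. Neither window held TATAAA (11.9% of all windows), the steroid receptor half-site AGAACA (14.3%), the core of the interferon-stimulated element, which is GAAA, any 2 bases and GAAA (3.31%), or the cyclic AMP element TGACGTCA (1.69%). GC content was 67.2% for *Neurog2* and 64% for *Synpr*, and the median window had 53.2%.

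The counted read pairs numbered 21323021 to 32670858 per kidney library, 21743131 to 29791297 per heart library and 21031599 to 33637390 per liver library. Levels are given as counts per 1000000 counted pairs (CPM), and 3 counts in a kidney library come to between 0.0918 and 0.141 CPM. Segment markers fit the kidney label: the proximal tubule phosphate transporter *Slc34a1* had a mean of 5404 CPM and the thick limb gene *Umod* 2054 CPM. The heart and liver libraries likewise held their own markers at a summed 35442 CPM or more and 74831 CPM or more. In bulk tissue, a change in the number of cells of a type and a change in RNA per cell cannot be told apart. Counting intervals are 95% exact Poisson intervals and cover counting error alone.

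*Neurog2* was counted in each of the 12 kidney libraries. At 8 weeks the 4 libraries held 36, 37, 49 and 58 counts, or 1.69, 1.49, 1.53 and 1.87 CPM. At 10 weeks they held 65, 57, 70 and 76 counts, or 2.89, 2.14, 2.33 and 2.81 CPM. At 12 weeks they held 182, 229, 74 and 126 counts, or 5.57, 7.61, 3.03 and 4.30 CPM. Each 10-week library therefore lay above each 8-week library, and each 12-week library above each 10-week library, although replicate 3 at 12 weeks exceeded replicate 1 at 10 weeks by little. The means were 1.64 ± 0.171, 2.54 ± 0.367 and 5.13 ± 1.95 CPM (SD, n = 4), so the SD widened with the mean. The ratio of means was 3.12 at 12 against 8 weeks, 1.55 at 10 against 8 weeks and 2.02 at 12 against 10 weeks. In the edgeR quasi-likelihood fit of the 12 libraries the log2 fold changes were 1.67 ± 0.24, 0.61 ± 0.25 and 1.06 ± 0.23 (SE) in that order. Of all 17649 genes kept in kidney, 2.73% were likewise without overlap and higher at 12 against 8 weeks, 5.24% at 10 against 8 weeks and 3.14% at 12 against 10 weeks. The counting intervals of the 12-week libraries are narrower than the spread between them: replicate 2 had an interval of 6.66 to 8.66 CPM and replicate 3 one of 2.38 to 3.81 CPM.

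*Synpr* was held by a few kidney libraries. The 8-week libraries had 0, 1, 56 and 2 counts, or 0, 0.0404, 1.74 and 0.0643 CPM. Those of 10 weeks had 0, 0, 3 and 2 counts, or 0, 0, 0.0998 and 0.0740 CPM. Those of 12 weeks had 112, 324, 3 and 62 counts, or 3.43, 10.8, 0.123 and 2.12 CPM. Replicates 1, 2 and 4 at 12 weeks and replicate 3 at 8 weeks thus held nearly all of it, and the other 8 libraries had 3 counts or fewer each. Replicate 2 at 12 weeks alone gave 57.3% of the 565 kidney counts, and replicate 3 at 8 weeks gave 94.9% of the 8-week counts. The mean was 0.462 ± 0.854 CPM (SD, n = 4) at the youngest age, 0.0434 ± 0.0513 CPM at the middle age and 4.11 ± 4.64 CPM at the oldest, and each SD was above its mean. The 12-week libraries lay above all 10-week libraries but overlapped with the 8-week libraries, and the 8-week and 10-week libraries overlapped. The separation of 12 from 10 weeks rested on depth, since replicate 3 held 3 counts at both ages (0.123 and 0.0998 CPM). Of all genes kept in kidney, 3.14% were likewise without overlap and higher at 12 against 10 weeks. Fitted log2 fold changes were 3.03 ± 1.02 (SE) at 12 against 8 weeks, -3.35 ± 1.91 at 10 against 8 weeks and 6.38 ± 1.49 at 12 against 10 weeks. Without replicate 3 at 8 weeks, the value at 12 against 8 weeks was 6.62 and that at 10 against 8 weeks turned to 0.24. Without replicate 2 at 12 weeks, the value at 12 against 8 weeks was 1.92.

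*Ptpn5* had the fewest counts of the 3 genes, 106 over the 12 kidney libraries. At 8 weeks the libraries held 3, 3, 10 and 2 counts, or 0.141, 0.121, 0.311 and 0.0643 CPM. At 10 weeks they held 1, 18, 7 and 3 counts, or 0.0445, 0.676, 0.233 and 0.111 CPM, and at 12 weeks 13, 24, 4 and 18 counts, or 0.398, 0.798, 0.164 and 0.614 CPM. The ages overlapped in each pair: replicate 3 at 12 weeks was below replicate 3 at 8 weeks, and replicate 2 at 10 weeks was above all libraries but replicate 2 at 12 weeks. The means were 0.159 ± 0.106, 0.266 ± 0.284 and 0.493 ± 0.274 CPM (SD, n = 4). The ratio of means at 12 against 8 weeks, 3.10, was close to that of *Neurog2*, but with a log2 fold change of 1.61 ± 0.67 (SE) its error was larger. The log2 fold changes were 0.70 ± 0.74 at 10 against 8 weeks and 0.91 ± 0.62 at 12 against 10 weeks. Without replicate 2 at 10 weeks these became -0.28 and 1.89. The counting intervals of most libraries overlapped, as between replicate 3 at 12 weeks (0.0447 to 0.420 CPM) and replicate 2 at 8 weeks (0.0250 to 0.354 CPM).

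**Figure D1:**
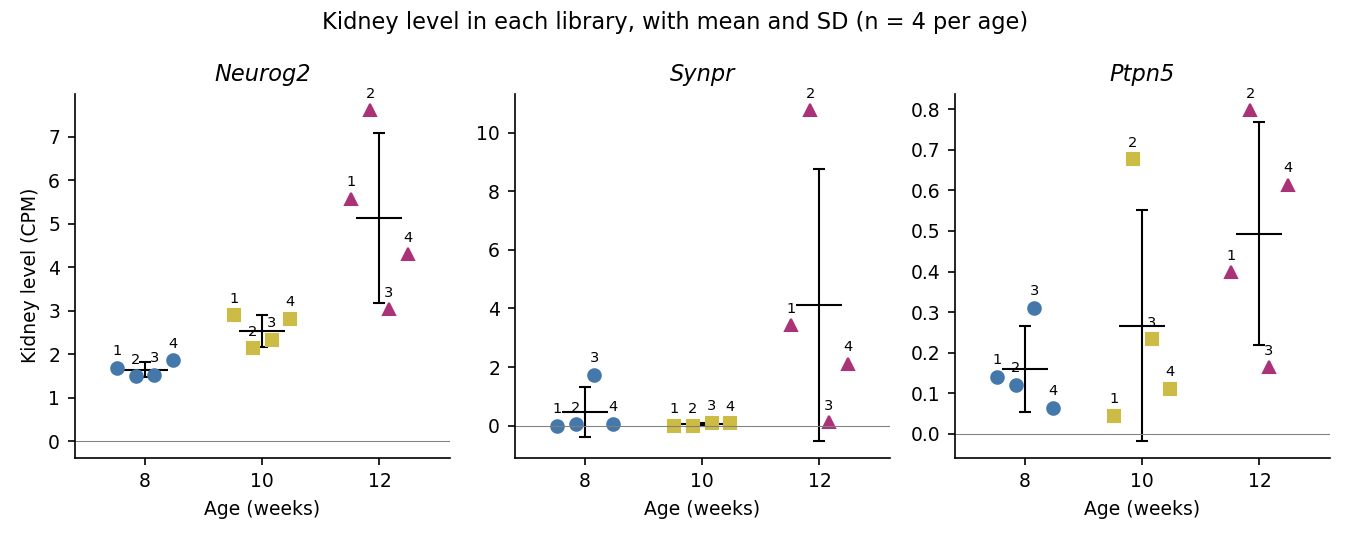
Level of *Neurog2*, *Synpr* and *Ptpn5* in CPM (vertical axes, scaled per gene) in each kidney library by age in weeks, with the replicate number above each point and the mean and SD as black bars (n = 4). *Neurog2* stands in 3 steps without overlap, *Synpr* is near 0 except in 4 libraries and *Ptpn5* overlaps between ages.

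The 3 genes shared their highest and lowest libraries within 12 weeks. Replicate 2 was the highest 12-week library for each of them and replicate 3 the lowest, while replicate 3 at 8 weeks was the highest of its age for *Synpr* and *Ptpn5* and not for *Neurog2*. Over the 12 libraries, Pearson's r of log2 CPM (prior count of 2) was 0.73 for *Neurog2* with *Synpr*, 0.69 for *Ptpn5* with *Synpr* and 0.55 for *Neurog2* with *Ptpn5*. Spearman's rho was 0.62, 0.58 and 0.41 for the same pairs. With the age means removed, r was 0.62, 0.56 and 0.14. Without the 2 libraries farthest from the median of the first gene of each pair, r was 0.31, 0.88 and 0.26, so the relation of *Neurog2* with the others rested on those libraries. These are descriptions, since the 3 genes were chosen on these libraries and share their depth.

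Variation between libraries of 1 age differed widely among the 3 genes. edgeR's biological coefficient of variation, the spread between animals beyond counting error, was 22.1% for *Neurog2*, 55.6% for *Ptpn5* and 121% for *Synpr*, beside a common value of 11.3% in kidney. Among 17649 genes ordered from the most variable, *Synpr* was at place 12, *Ptpn5* at 108 and *Neurog2* at 2903. Genes with a like mean level had fitted values of 21.03%, 26.5% and 17.8% for *Synpr*, *Ptpn5* and *Neurog2*. Leaving out each of the 12 libraries in turn moved the *Neurog2* log2 fold change at 12 against 8 weeks between 1.40 and 1.85, that of *Ptpn5* between 1.28 and 2.24 and that of *Synpr* between 1.92 and 6.62. With replicate 3 at 8 weeks and replicate 2 at 12 weeks, the libraries with the most *Synpr* of these ages, left out together, the values were 1.37, 1.91 and 5.50 for *Neurog2*, *Ptpn5* and *Synpr*.

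**Figure D2:**
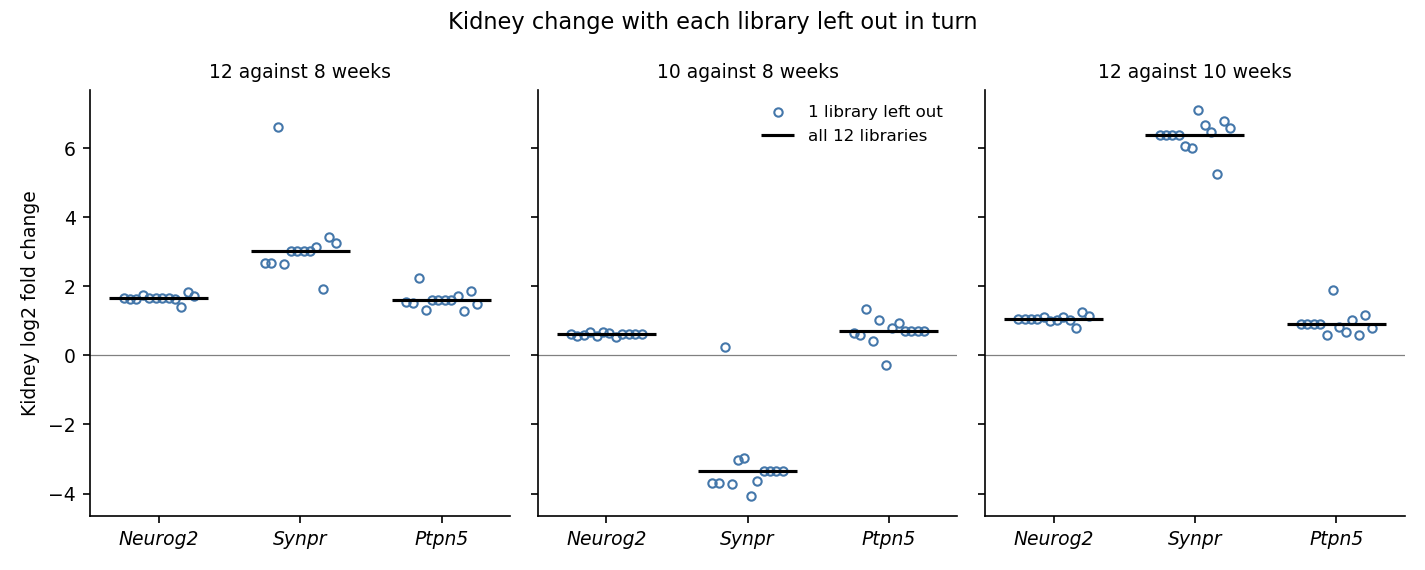
Kidney log2 fold change (vertical axis, from the edgeR fit) of the 3 genes in each comparison of ages; the black line is the value with all 12 libraries and each open circle the value with 1 library left out. *Neurog2* moved between 1.40 and 1.85 at 12 against 8 weeks, whereas single libraries carried *Synpr* from -3.35 to 0.24 and *Ptpn5* from 0.70 to -0.28 at 10 against 8 weeks.

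Heart and liver were not used to choose the genes and held little or none of their RNA. *Neurog2* had 0 counts in all 12 heart and all 12 liver libraries, against 1059 in kidney. Over the 12 libraries of each tissue, kidney had 3.19 CPM, at least 327-fold higher than heart and at least 341-fold higher than liver at a floor of 3 counts per tissue. *Synpr* had 5 counts in heart, 1 in each of 5 libraries, and 4 counts in liver, in 3 libraries. Its pooled level was 1.70 CPM in kidney, 0.0163 CPM in heart and 0.0125 CPM in liver. The ratio of kidney to heart was 105 (interval 44.5 to 323) and to liver 137 (53.0 to 503). Intervals of these tissue ratios come from counts pooled over the 12 libraries and leave out the spread between animals. Replicate 2 at 12 weeks gave 57.3% of the *Synpr* counts in kidney. At 10 weeks the *Synpr* mean was 0.0434 CPM in kidney, 0.0195 CPM in heart and 0.0163 CPM in liver. *Ptpn5* had 1 count in heart, in a 12-week library, and 0 in liver. Kidney, with 0.319 CPM, was 98.1-fold above heart (interval 17.2 to 3909) and at least 34.2-fold higher than liver.

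No age comparison of these genes in heart or liver could pass a test. None of the 3 passed the filter on low counts in either tissue. The exact two-sided permutation test of CPM, 4 against 4 libraries, gave p = 0.714 for *Synpr* in heart at 12 against 8 weeks, where the means were 0.0203 and 0.0112 CPM. In liver the means of *Synpr* were 0 and 0.0207 CPM at these ages, and the exact p was 0.429. For *Ptpn5* in heart, with means of 0.00930 and 0 CPM, the exact p was 1. After Benjamini-Hochberg adjustment over 8 such tests each p was 1, and the smallest p that the design allows is 0.0286. At these depths differences of a few counts per library are not detectable.

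**Figure D3:**
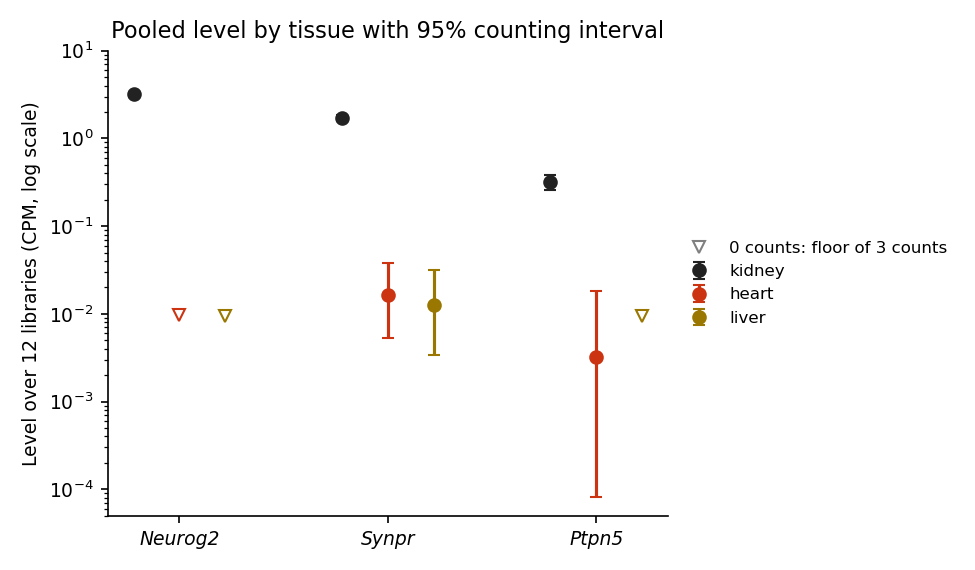
Pooled level (vertical axis, CPM on a log scale) of each gene over the 12 libraries of kidney, heart and liver, with 95% exact Poisson intervals; open triangles mark tissues with 0 counts, drawn at the floor of 3 counts. Kidney lies at 3.19, 1.70 and 0.319 CPM, and heart and liver at 0.0163 CPM or below or at 0 counts.

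Per length, the 3 genes were of low abundance in kidney. The mean over 12 libraries was 1.21 CPM per kilobase of exons for *Neurog2*, 0.163 for *Synpr* and 0.0445 for *Ptpn5*. Among kept genes with an annotated length, 39.5% lay below *Neurog2*, 8.62% below *Synpr* and 0.799% below *Ptpn5*. To place them among other neural genes, 126 genes in 10 lists were examined, of which 19 had 0 counts in all 12 kidney libraries and 69 passed the filter on low counts. Of the 126, 33 were above *Neurog2* per kilobase, 59 above *Synpr* and 71 above *Ptpn5*, and the list median was 0.111 CPM per kilobase.

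None of the 69 list genes tested passed an adjusted p of 0.05 in kidney (edgeR's quasi-likelihood test, Benjamini-Hochberg over all kept genes). That count was 0 higher and 0 lower in each comparison, while 0.0567% of all genes were called at 12 against 8 weeks, 0.929% at 10 against 8 weeks and 0.482% at 12 against 10 weeks; at these shares fewer than 1 call among 69 genes would come from the background in each. At an unadjusted p under 0.05 there were 9, 8 and 11 list genes of 69 in that order, beside 11.7%, 16.5% and 16.4% of all kept genes. The median log2 fold change of the list genes was 0.03, -0.03 and 0.05, beside 0.00 for all genes kept in kidney in each comparison. DESeq2 called 1 list gene higher, *Hes1* (log2 fold change 0.45, adjusted p = 0.00120), and 1 lower, *Pclo* (-0.46, adjusted p = 0.0351), at 12 against 8 weeks. DESeq2 called 0.737% of all kept genes in that comparison. Without replicate 2 at 12 weeks, edgeR called *Hes1* as well (0.52, adjusted p = 0.0137), beside 0.0454% of all genes tested. *Hes1* encodes a repressor of proneural genes and *Pclo* a scaffold protein of the presynaptic active zone. Neither passed in edgeR's test of all libraries, with adjusted p = 0.0883 and 0.199.

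The relatives of *Neurog2* were almost absent. Of 15 proneural bHLH genes, 11 had 0 counts in all 12 kidney libraries, among them its closest relatives *Neurog1* and *Neurog3* and its target *Neurod1*. *Bhlhe22*, a bHLH gene of cortical and retinal neurons, had 0.194 CPM per kilobase and *Atoh7*, which specifies retinal ganglion cells, 0.103, both below the 1.21 of *Neurog2*. *Bhlhe22* was the 1 member that passed the filter, and 0 of 1 passed the test in any kidney comparison. The list of 19 partners, inhibitors and targets was largely present, as these genes are used in many tissues, and 15 of 19 passed the filter. *Id2*, an inhibitor of bHLH dimers, had 30.9 CPM per kilobase and *Hes6*, a neurogenin target that opposes *Hes1*, 17.3. The bHLH partner *Tcf3* had 2.61 and the Notch ligand *Dll1*, a direct neurogenin target, 1.79. *Insm1* and *Dll3*, targets with few roles outside neural and endocrine cells, had 3 and 4 counts in all 12 libraries. None of the 15 passed the test, and *Hes1* had the lowest p, with 16.1, 17.0, 17.4 and 16.8 CPM at 8 weeks and 25.04, 18.8, 24.5 and 22.3 CPM at 12 weeks. These libraries do not overlap, and 2.73% of all genes kept in kidney were likewise without overlap and higher at 12 against 8 weeks. The lowest 12-week library for *Hes1* was replicate 2, in which *Neurog2* was highest. By age, however, the means of both genes rose, with 16.8, 20.2 and 22.7 CPM for *Hes1* at 8, 10 and 12 weeks. A relation between the 2 genes was not tested.

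In the synaptophysin family, *Synpr* was above none but *Syngr4* per kilobase. Its 7 relatives ranged from 0.0679 CPM per kilobase (*Syngr4*) to 27.7 (*Sypl1*, a family member of non-neuronal vesicles). *Syngr2*, another member found outside neurons, had 22.6, *Sypl2*, known from muscle, 14.4 and *Syngr1* 2.66. Synaptophysin itself, *Syp*, had 0.578 and *Syngr3* 0.277. Of these 7, 6 were tested and 0 passed in any comparison. *Syp* had a log2 fold change of 0.37 ± 0.13 (SE, adjusted p = 0.319) at 12 against 8 weeks, against 0.08 ± 0.06 for *Sypl1* and 0.12 ± 0.06 for *Syngr2*. Over the 12 libraries *Syp* ranged from 2.95 to 4.71 CPM, while *Synpr* ranged from 0 to 10.8 CPM.

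Genes of synaptic vesicle release were present in part. Of 24, 14 passed the filter and 0 passed the test in any comparison. *Vamp2*, a vesicle fusion protein also used outside neurons, had 20.2 CPM per kilobase and *Cplx2*, a regulator of fusion, 4.37. Other presynaptic genes with counts in each library were the vesicle protein gene *Sv2a* with 3.00 CPM per kilobase, *Rab3a* with 2.53, the synapsin genes *Syn2* and *Syn3* with 0.682 and 0.520, *Pclo* with 0.619 and *Unc13a* with 0.125. At the other end of the list *Snap25* had 1 count, the glutamate transporter gene *Slc17a6* 1 and the GABA transporter gene *Slc32a1* 0 over all 12 libraries.

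Of the nearest relatives of *Ptpn5*, *Ptprr* had 0.217 CPM per kilobase and *Ptpn7* 0.104, both above the 0.0445 of *Ptpn5*. These phosphatases act on the same kinases. Neither passed the test: *Ptpn7*, a phosphatase of blood cells, had a log2 fold change of 0.90 ± 0.26 (SE, adjusted p = 0.242) at 12 against 8 weeks and *Ptprr* one of -0.31 ± 0.27 (adjusted p = 0.696). Of 17 STEP substrates and regulators, 12 were tested and 0 passed. The substrate *Mapk14* (p38), used in all cells, had 38.7 CPM per kilobase. The glutamate receptor genes on which STEP acts in neurons, *Grin1*, *Grin2a*, *Grin2b*, *Gria1* and *Gria2*, had 11, 0, 3, 17 and 20 counts over the 12 libraries.

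**Figure D4:**
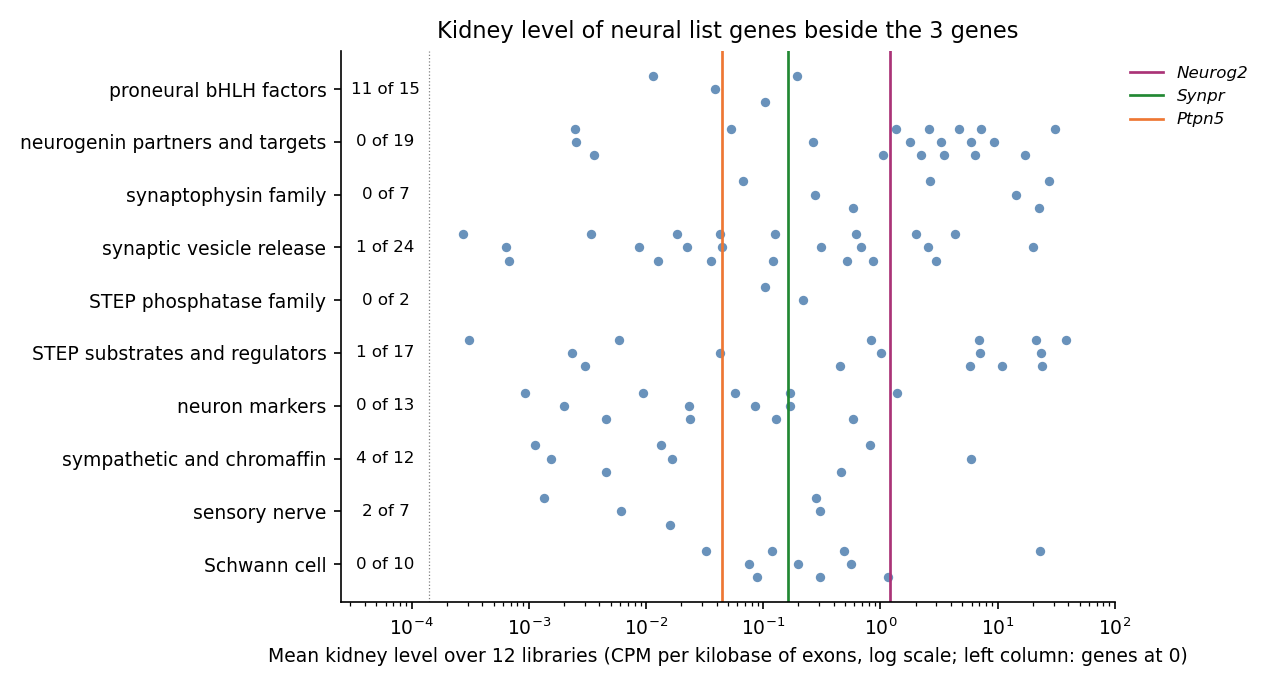
Mean kidney level over 12 libraries (horizontal axis, CPM per kilobase of exons on a log scale) of each gene of the 10 neural lists; vertical lines mark *Neurog2* (1.21), *Synpr* (0.163) and *Ptpn5* (0.0445), and the left column counts genes at 0. No proneural bHLH gene reached *Neurog2*, and 11 of 15 were at 0.

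Markers of nerve and neuron were examined for their level in the same libraries. Of 13 neuron markers, 7 were tested and 0 passed. *Uchl1*, also made by some epithelial cells of the kidney, had 1.38 CPM per kilobase and *Map2* 0.580, whereas the axon growth gene *Gap43* had 3 counts and *Tubb3* 11 over all libraries. *Elavl3*, *Stmn2*, *Nefl* and *Nefm* were counted in each library, with 391, 254, 196 and 165 counts over all libraries. Of 12 sympathetic and chromaffin markers, 3 were tested and 0 passed. The gene for tyrosine hydroxylase, *Th*, which sympathetic neurons need to make noradrenaline, had 0 counts in all libraries, as did *Phox2a*, *Hand2* and *Chga*, and *Dbh* had 2. Their summed level of 49.7 to 83.1 CPM came almost wholly from *Ddc* (5.94 CPM per kilobase), which proximal tubule cells also express, and *Npy* had 0.816. *Slc18a2* of the same list was counted in each library, with 856 counts over all libraries. Of 7 sensory nerve markers, 2 were tested and 0 passed, with *Calca* at 0.283 CPM per kilobase. Of 10 Schwann cell markers, 7 were tested and 0 passed. *Erbb3*, which kidney epithelium also expresses, had 22.9 CPM per kilobase, *Mbp* 1.17 and the lineage factor *Sox10* 0.075. Summed by library, the neuron markers were at 16.4 to 18.8 CPM at 8 weeks, 18.4 to 24.7 at 10 weeks and 18.1 to 20.99 at 12 weeks. This sum came mostly from *Map2* and *Uchl1*, with means of 12.1 and 3.94 CPM. The median log2 fold change of the 7 tested was 0.35 at 12 against 8 weeks, beside 0.00 for all genes kept. It was 0.06 at 10 against 8 weeks and 0.18 at 12 against 10 weeks. *Th*, *Phox2a*, *Hand2* and *Chga* were at 0 in each kidney library, so their counts cannot show a relation to the 3 genes.

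The same lists in the other tissues gave a few calls. In heart at 12 against 8 weeks 69 list genes were tested, 0 were called higher and 5 lower, beside 4.56% of all genes called in either direction and 2.21% called lower. The 5 were *Hand2*, *Sv2a*, *Rcor2*, *Dlg4* and *Tcf3*, with log2 fold changes of -1.41, -1.04, -0.57, -0.48 and -0.30. At 10 against 8 weeks *Sv2a* and *Rcor2* were lower in heart (-0.85 and -0.78), beside 1.06% of all genes called and 0.304% called lower. At 12 against 10 weeks 0 list genes were called by edgeR in heart, beside 0.0396% of all genes, and 13 of 69 had an unadjusted p under 0.05, beside 11.7% of all genes kept in heart. In liver, 52 were tested and 1, *Hes1* (0.95, adjusted p = 0.0207), was higher at 12 against 8 weeks by edgeR, beside 0.239% of all genes called and 0.177% called higher. At 10 against 8 and at 12 against 10 weeks 0 list genes were called in liver, beside 0.0204% and 0.0545% of all genes, and 14 and 7 of 52 had an unadjusted p under 0.05, beside 14.3% and 14.1% of all genes kept in liver.

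Among markers of other cell types the summed lymphocyte and plasma cell list was highest at 12 weeks, mostly through 1 gene. Its summed level was 2.35 to 4.64 CPM at 8 weeks, 2.43 to 5.03 at 10 weeks and 5.54 to 20.5 at 12 weeks. Within 12 weeks it was 15.4, 20.5, 5.54 and 7.85 CPM in replicates 1 to 4, highest in replicate 2 and lowest in replicate 3, as for *Neurog2*, *Synpr* and *Ptpn5*. Most of it was *Jchain*, the joining chain of secreted antibodies, with 14.0, 19.3, 4.14 and 6.89 CPM at 12 weeks against 1.42 to 3.30 CPM at 8 weeks. *Mzb1*, another plasma cell gene, had means of 0.674, 0.385 and 0.405 CPM at 8, 10 and 12 weeks and so was not highest at 12 weeks. The T cell gene *Cd3e* had 0.345, 0.556 and 0.525 CPM. The B cell genes *Ms4a1* and *Cd79a* had means of 0.0436 and 0.0765 CPM over all ages, so that all 6 genes of the list were detected and none but *Jchain* exceeded 1 CPM in a mean. Their part in the levels of the 3 genes was not tested. At 8 weeks, replicate 3, which held the most *Synpr* of its age, had the highest sum of that list as well, at 4.64 CPM.

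The remaining marker lists did not follow the 3 genes in this way. Brown fat markers, led by *Ucp1* and *Cidea* and a sign of tissue around the kidney, summed to 50.8 CPM in replicate 2 at 8 weeks. The other 8-week libraries had 0.373 to 0.985 CPM, and the 10-week libraries 3.53 to 19.2 CPM. At 12 weeks the sum was 22.6, 0.399, 0.738 and 0.819 CPM in replicates 1 to 4. Replicate 2, the lowest of these, was highest for the 3 genes. Replicate 1, with the highest sum of that age, held the most *Neurog2* and *Synpr* after replicate 2. Urothelium markers were led by *Upk1a* and *Upk3a* per kilobase and by *Upk3b* and *Upk1b* in CPM. Their sum ranged from 15.3 to 28.4 CPM at 8 weeks, 25.7 to 33.5 at 10 weeks and 12.5 to 20.97 at 12 weeks. Adrenal cortex markers lay between 4.498 and 6.05 CPM in all libraries and came mostly from *Star*, ahead of *Mc2r*, while 3 of the 8 had 0 counts. Kidney epithelium markers lay between 13004 and 14876 CPM, and markers of thin limb and papilla, led by *Aqp1*, between 1110 and 1353 CPM. Heart muscle markers, led by *Myh6* and *Ryr2*, summed to 1.74 to 4.99 CPM. The 5 hepatocyte genes summed to 2070 to 2484 CPM at 8 weeks, 1719 to 2292 CPM at 10 weeks and 2446 to 2758 CPM at 12 weeks, mostly as *Cyp2e1*, a gene that proximal tubule also expresses, followed by *Ttr*.

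The genes most like each of the 3 were sought among the genes kept in kidney, by Pearson's r of log2 CPM (prior count of 2) over the 12 libraries. The 5 highest are given, with no p, since they are the extreme of all genes and share libraries and depth with the 3. For *Neurog2* these were *Irf1* (r = 0.94), an interferon-induced transcription factor, *Sharpin* (0.92), a subunit of a ubiquitin ligase complex in inflammatory signaling, the adhesion gene *Cadm1* (0.91), *Txnrd3* (0.91), a thioredoxin reductase, and the antibody light chain segment *Igkv12-46* (0.90). *Irf1* had means of 9.66, 12.1 and 14.2 CPM at 8, 10 and 12 weeks, with a rho of 0.99. Its levels ran from 9.09 to 16.4 CPM, and with age means removed r was 0.74. *Igkv12-46* was near the floor, with means of 0, 0.0334 and 0.382 CPM at 8, 10 and 12 weeks. Its highest level was 0.546 CPM, and with age means removed its r was 0.60.

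For *Synpr* the 5 were *Hsd11b1* (r = 0.96), which regenerates active glucocorticoid, *Hrg* (0.94), a plasma glycoprotein, the pseudogene *Nlrp5-ps* (0.94), and the lysosomal enzyme genes *Gusb* (0.93) and *Galns* (0.92). *Hsd11b1* was at 190, 233, 119 and 189 CPM in replicates 1 to 4 at 12 weeks. At 8 weeks it was at 199 CPM in replicate 3 and at 123 to 138 CPM in the others, and at 10 weeks at 117 to 145 CPM. The 4 libraries with *Synpr* were thus the 4 with the highest *Hsd11b1*, and r with age means removed was 0.97.

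For *Ptpn5* they were *Arpc2* (r = 0.90), of the actin branching complex, *Apol9b* (0.88), an interferon-responsive apolipoprotein L gene, the detoxifying transferases *Gstt1* (0.87) and *Sult2a3* (0.86), and the lysosomal protease gene *Ctsh* (0.85). *Arpc2* was at 179 CPM in the 2 libraries with the most *Ptpn5*, replicate 2 at 10 weeks and replicate 2 at 12 weeks, and at 155 CPM in replicate 4 at 8 weeks. *Apol9b* had its highest levels, 1.46, 1.06 and 1.03 CPM, in the 3 libraries in which *Ptpn5* was highest. None of these 15 genes belongs to the neural lists.

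**Figure D5:**
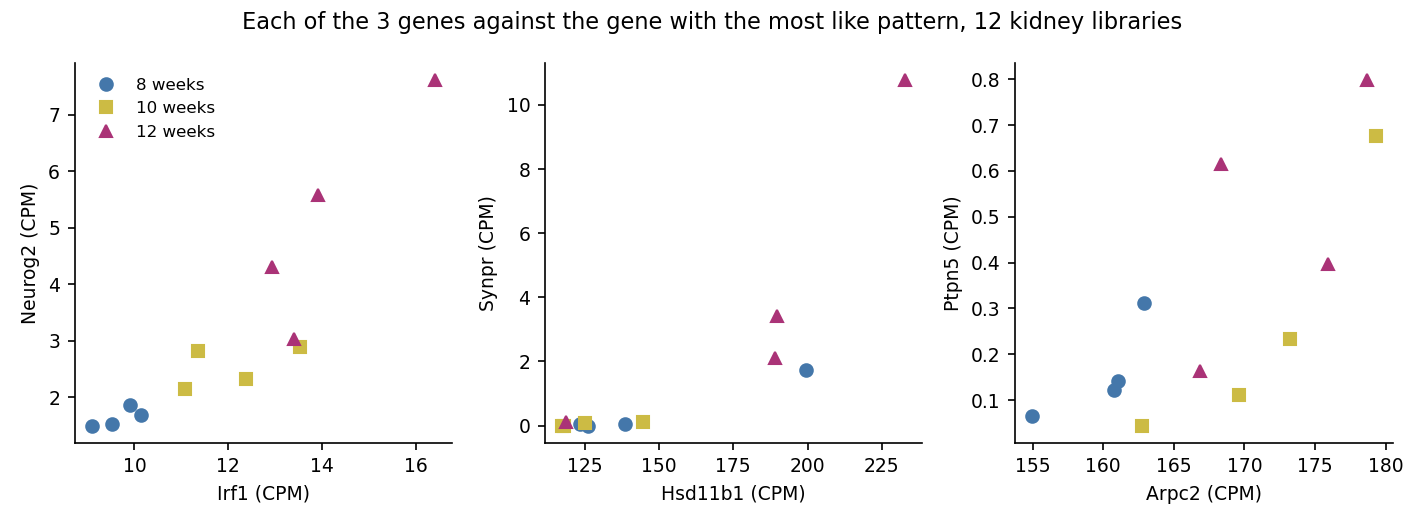
Level of each of the 3 genes (vertical axes, CPM) against the gene with the highest Pearson's r to it (horizontal axes, CPM) in the 12 kidney libraries, with symbols by age. *Neurog2* goes with *Irf1* over all ages (r = 0.94), *Synpr* is above 1 CPM in the 4 libraries with the highest *Hsd11b1*, and *Ptpn5* goes with *Arpc2* (r = 0.90).

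The nearest protein-coding genes on each side of the 3 were not called. *Zgrf1* ends 14775 bases before *Neurog2* and had a log2 fold change of -0.41 ± 0.19 (SE, adjusted p = 0.427) at 12 against 8 weeks. *Alpk1*, 34042 bases after it, had -0.08 ± 0.19 (adjusted p = 0.900). *Tmem86a*, 23004 bases from *Ptpn5*, had 0.22 ± 0.18 (adjusted p = 0.669), and *Mrgpra6* on the other side had 0 counts. *Sntn* next to *Synpr* had 0 counts, and *Cadps*, 461296 bases away, had 16 counts over the 12 libraries. None of the 3 tested passed in any kidney comparison.

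The counts by strand bear on how far reads can be given to these genes. The libraries do not keep strand, so reads of an overlapping gene on the other strand cannot be told from those of the gene itself, and a pair that touches 2 genes is left out of the column used. For *Neurog2*, with no overlapping gene, that column held 1059 counts and the strand columns 1060 in sum. For *Ptpn5* they held 106 and 120, so 11.7% of the pairs appear in the strand columns alone. For *Synpr* they held 565 and 631 (10.5%), and 63 of the 66 further pairs were at 12 weeks. The overlapping genes themselves, *Gm72805*, *Mir7056* and *Gm14377* at *Ptpn5* and *Gm62232*, *Gm62227*, *Gm15913* and *Gm5087* at *Synpr*, had 0 or 1 count each over the 12 kidney libraries.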

How the data were processed

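RNA was measured in 36 libraries of heart, kidney and liver, 4 for each tissue and age. The deposited values are raw counts: the authors examined reads with FastQC 0.11.9, trimmed with cutadapt 4.2, aligned with STAR 2.7.11b to GRCm39 with the Ensembl annotation and counted read pairs per gene, without regard to strand and by strand. The unstranded column was used, and the rows that name no gene, 21.2% to 31.4% of the pairs of a library, were left out. Pairs that align to several places or touch several genes are not in it, which lowers genes with overlapping neighbors. Names, positions and promoters were taken from GENCODE for GRCm39, which named 78168 of the 78239 genes.

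As in the study's methods, genes entered the fit of a tissue if some age had counts above 0 in 2 or more samples together with a mean count of 10 or more, which left 17649 genes in kidney, 15137 in heart and 14672 in liver. A single model per tissue with a mean for each age and TMM factors was tested with edgeR 4.0.16 (quasi-likelihood) in R 4.3.3, with Benjamini-Hochberg adjustment over all kept genes, and was tested on simulated data. CPM is the count per 1000000 counted pairs. The alternatives were limma-voom (limma 3.58.1), DESeq2 1.42.0, RLE size factors, no filter, a replicate block, the first strand column and each library left out in turn. Other steps used python 3.11.15 with numpy 2.4.6, pandas 2.3.3, scipy 1.17.1 and matplotlib 3.10.9.

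Besides the 3 genes, the text names of each list the genes past the threshold in kidney and the 2 highest per kilobase, all relatives in the synaptophysin and STEP families, the nearest protein-coding neighbors and the 5 genes most like each of the 3. Some genes that this rule would name and a promoter are not reported here. Further list genes named (such as *Snap25*, *Th*, *Tcf3* and *Dll1*) and the leaving out of 2 libraries together were chosen after their values were seen. The 3 genes and the lists were chosen with earlier results of these data known. The submitters call the replicates biological, and their numbers were not taken as pairs.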

Additional observations from a re-analysis of the deposited data

Results flagged for a closer look

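In kidney at 8 weeks, *Synpr* in replicate 3 stood apart at 1.74 CPM, while the other 3 libraries had 0 to 0.0643 CPM. Its gap to the next library was 0.963 of the range of the group, which is why it is listed. This is a description without a test, since *Synpr* was chosen on these values. *Ptpn5* had 14 pairs and *Synpr* 66 pairs in kidney that appear in the strand columns but not in the column used here.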

How the results depend on the processing

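*Neurog2* kept its direction in kidney under all alternatives run, with log2 fold changes of 1.37 to 1.67 at 12 against 8 weeks in the 7 settings other than single libraries left out. *Synpr* and *Ptpn5* rest on few libraries and counts. With each library left out in turn, *Synpr* ranged from 1.92 to 6.62 at 12 against 8 weeks, from -4.08 to 0.24 at 10 against 8 weeks (0.24 without replicate 3 at 8 weeks) and from 5.26 to 7.11 at 12 against 10 weeks. *Ptpn5* ranged from 1.28 to 2.24, from -0.28 to 1.33 (-0.28 without replicate 2 at 10 weeks) and from 0.58 to 1.89 in these comparisons, and *Neurog2* from 1.40 to 1.85, 0.54 to 0.68 and 0.80 to 1.24. Without both replicate 3 at 8 weeks and replicate 2 at 12 weeks, which was tried after the data were seen, *Synpr* had 5.50 at 12 against 8 weeks and 0.24 at 10 against 8 weeks. The cause was not tested. *Ptpn5* fell under the filter with the first strand column and has no value there.

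The list genes called in kidney with DESeq2 were 1 higher and 1 lower at 12 against 8 weeks, 1 higher at 10 against 8 weeks (*Map2*) and 1 lower at 12 against 10 weeks (*Map2*). Without a filter on low counts they were 3 higher and 1 lower, 2 higher, and 1 higher and 2 lower in that order. With each library left out in turn they ranged from 0 to 1 higher and 0 lower at 12 against 8 weeks, 0 to 1 higher and 0 lower at 10 against 8 weeks, and 0 to 1 higher and 0 to 2 lower at 12 against 10 weeks. The calls came without replicate 4 at 10 weeks (*Map2*, *Hes6* and *Sox10*) and without replicate 2 at 12 weeks (*Hes1*). Without the 2 libraries named above, 1 was higher at 12 against 8 weeks (*Hes1*). Over all genes tested in kidney at 12 against 8, 10 against 8 and 12 against 10 weeks, edgeR called 10, 164 and 85 (0.0567%, 0.929% and 0.482%), DESeq2 130, 664 and 657 (0.737%, 3.76% and 3.72%), edgeR without a filter 513, 1005 and 938 (1.22%, 2.39% and 2.23%), edgeR without replicate 4 at 10 weeks 7, 334 and 397, without replicate 2 at 12 weeks 8, 129 and 28, without the 2 libraries named above 4, 25 and 21, and with a replicate block 4, 189 and 97. limma-voom, RLE size factors, the first strand column and the replicate block gave 0 list genes. Same-numbered kidney samples of different ages had correlations of -0.166 to 0.135 in their deviations from the group means, so the numbers do not pair the samples. With the replicate block the log2 fold changes at 12 against 8 weeks were 1.61, 3.16 and 1.58 for *Neurog2*, *Synpr* and *Ptpn5*.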

Other observations

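Because *Gusb*, a classic androgen-responsive gene of mouse kidney, was among the 5 genes most like *Synpr*, the levels of 5 more genes known to respond to androgen in this organ were set beside the 3 genes, a list chosen after the data were seen and given without a test. Over the 12 kidney libraries Pearson's r of log2 CPM with *Synpr* was 0.93 for *Gusb*, 0.89 for the organic anion transporter gene *Slco1a1*, 0.89 for *Cyp4b1*, 0.74 for *Cyp4a12a*, 0.59 for *Odc1*, the first enzyme of polyamine synthesis, and 0.42 for the kidney androgen-regulated protein gene *Kap*. With age means removed these were 0.88, 0.78, 0.77, 0.66, 0.41 and 0.64. With *Neurog2* the r was 0.80, 0.72, 0.82, 0.83, 0.68 and 0.53 in the same order, and 0.71, 0.54, 0.51, 0.68, 0.38 and 0.34 with age means removed. With *Ptpn5* it was 0.72, 0.55, 0.64, 0.65, 0.39 and 0.43, and 0.57, 0.29, 0.40, 0.45, 0.078 and 0.35 with age means removed.

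*Gusb* was at 97.2, 141, 69.1 and 92.3 CPM in replicates 1 to 4 at 12 weeks. At 8 weeks it was at 84.1 CPM in replicate 3 and at 56.5 to 67.5 CPM in the others. Replicate 2 at 12 weeks, the highest for *Synpr*, *Neurog2* and *Ptpn5*, also had the highest *Slco1a1* (1009 CPM), *Cyp4a12a* (348 CPM), *Cyp4b1* (5381 CPM) and *Odc1* (2082 CPM) of all kidney libraries. Replicate 3 at 12 weeks, the lowest of its age for the 3 genes, was the lowest of its age for *Gusb*, *Slco1a1*, *Cyp4a12a*, *Cyp4b1* and *Kap* but not for *Odc1*.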
